A study of Mus musculus with 16 samples.

Results

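The LINE1 copies described here are those that carried little CpG methylation in wild-type mouse embryonic stem cells. A copy is a row of CpG sites on the same strand in which neighbours lie no more than 200 bp apart, counted over sites with at least 10 calls in all 16 libraries. A copy was chosen when at most 17% of its calls were methylated in wild-type replicates 1 and 2 combined. This gave 59 copies with 800 sites, out of 753 copies with 10185 sites, and left 694 other copies with 9385 sites. Since replicates 1 and 2 made the choice, wild-type values below come from replicates 3 and 4 alone, and both values are given.

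A LINE1 amplicon was sequenced after bisulfite conversion of DNA from 4 genotypes of J1 (129S4/SvJae) embryonic stem cells, all kept in serum medium to which LIF and 2i were added. The genotypes were unmodified J1 cells (wtJ1), cells without Uhrf1 (Uhrf1 KO) and cells with 1 of 2 changed forms, Uhrf1_H730A and Uhrf1_F46A, called H730A and F46A below. Each had 4 libraries, described as biological replicates. The labels do not say which clones or dishes they came from, so p-values for copies measure the spread between these libraries, which may be technical. Those for single sites rest largely on counting error, as described with the site counts. Uhrf1 itself was not sequenced, and the genotypes rest on the labels.

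LINE1 elements are retrotransposons that make up a large part of the mouse genome, and CpG methylation of their promoter region is one of the ways in which a cell keeps them silent. When DNA is copied the new strand is unmethylated. UHRF1 binds such hemimethylated CpGs, and its RING domain, together with its ubiquitin-like (UBL) domain, adds ubiquitin to histone H3, which brings the maintenance methyltransferase DNMT1 to the site. H730A changes the RING domain and F46A the UBL domain. Embryonic stem cells grown with 2i inhibitors are known for lower methylation than cells grown in serum alone.

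The libraries held 998982 to 1287040 CpG calls. The 59 copies took 59287 to 78284 of these, with a median of 51 to 70 calls per site and library, and 5.93 to 6.95% of the calls at tested sites. That share was 5.93 to 6.17% in wtJ1 and 6.50 to 6.95% in the mutants. Calls come from PCR reads without molecular identifiers, and many calls make counting error small without showing that many cells were sampled. Replicates 1 and 2 of wtJ1 agreed within sampling noise, so they may be 1 library deposited more than once. Chi-square p was 0.259 for coverage at the deepest site of each copy, 0.432 for methylated calls at that site and 0.298 for those of each position. The first 2 measures did not separate replicates 2 and 3 either (chi-square p = 0.195 and 0.276), but the third did (chi-square p = 4.85e-29). Replicates 3 and 4, which give the wild-type values, were close too, with chi-square p of 0.261, 0.800 and 0.0185 in the same order. Their independence is thus not shown either. Replicates 1 and 2 are used as a sum that chooses the copies. They serve as values only in alternatives in the closing section, where replicates 3 and 4 choose the copies or all 4 libraries are taken. The sources used here do not state where a read that matches several copies was counted, so a value cannot be tied to 1 locus or gene with certainty.

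The low level held in libraries that had no part in the choice, though less sharply. The 59 copies together stood at 14.0% and 13.9% in wtJ1 replicates 3 and 4, against 25.9% and 25.7% for the 694 other copies. Of the 59, 38 were again at or below 17% and 21 were above it, while 13 of the 694 others fell to 17% or less. In all, 45 of the 59 were higher in replicates 3 and 4 than in the replicates that chose them, against 58.8% of the other copies. The wild-type level of a copy ran from 3.99 to 26.6% with a median of 15.7%. The measured level is an average over a pool of cells, so few methylated CpGs in every cell and more of them in a share of the cells cannot be told apart.

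The threshold did not separate 2 kinds of copy. Just inside it lay a copy in the span of the lncRNA gene A330008L17Rik (chr8:99466421-99466563), one in Slc22a22, a solute carrier gene (chr15:57423675-57424029), and one in Fbxl7, a gene for an F-box protein (chr15:26681414-26681546), at 16.6, 16.8 and 17% in replicates 1 and 2. Just outside it lay chrX:28913439-28913581, chr5:61778649-61778791 and chr14:37197569-37197711, at 17, 17 and 17.1%. In replicates 3 and 4 the inner copies averaged 19.1, 21.3 and 20.8% and the outer ones 20.1, 17.9 and 18.4%.

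In size the 59 resembled the rest. The median copy had 12 CpG sites over 143 bp in both sets. The copies lay on 17 chromosomes, 33 on the plus strand, and 7 of them (11.9%) on the X chromosome, against 13.3% of the others. A unit is a match to the amplicon's pattern of CpG distances, and 9 of the 59 (15.3%) held several units in a row, against 10.1% of the others. Of the 59, 20 (33.9%) lay in the span of a protein-coding or lncRNA gene, against 28%, and the median distance to the nearest coding gene was 42240 bp against 71310 bp. Whether a copy lies in an exon, an intron or a UTR was not determined. Coordinates are in mm10, as the deposited files give them.

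Depth was uneven among them. The 10 deepest copies held 50.7% of the calls of the 59, and the deepest alone, in the span of Lrrc69 (chr4:14679386-14679740), held 10.2%. The next deepest were chr5:104893872-104894205, outside genes, chr16:69209254-69209396, outside genes, and chr14:44299107-44299943 in the lncRNA gene Gm32857. Then came chr12:38074773-38074937 in Dgkb, which codes for a diacylglycerol kinase, and the copy in A330008L17Rik. Summed levels lean on these copies, so levels per copy are given beside them. In 3 places 2 of the copies lay next to each other on 1 chromosome: chr10:106390993-106391118 with chr10:106391417-106391542, 299 bp apart, chr8:99466421-99466563 with chr8:99467057-99467211, 494 bp apart, and chrX:91843169-91843301 with chrX:91843842-91843947, 541 bp apart. Such neighbours may share a source and are not independent.

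The largest difference in CpG content was at 1 end of the amplicon. Position 8, counted in bp from the start of the pattern, was present as a tested CpG in 54.3% of the 70 units of the 59 copies and in 89.2% of the units of the other copies. Smaller differences were at position 29, present in 74.3% against 88.6%, at position 49, present in 91.4% against 82.5%, and at position 53, present in 82.9% against 91.0%. Of the calls of the 59, 3.19% lay at CpGs outside the pattern, against 0.727% in the other copies. With the positions of the 59 copies but the other copies' level at each position, the wtJ1 level would be 25.8%, the same as the 25.8% of the other copies, against 13.95% observed (means of replicates 3 and 4). The same calculation gives 5.19% in Uhrf1 KO, with 7.65% in H730A and 5.59% in F46A.

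Every one of the 3 mutants lost most of the little methylation that these copies had. In Uhrf1 KO the 59 copies together stood at 3.63, 3.79, 3.88 and 3.78% in replicates 1 to 4, a mean of 3.77% ± 0.101 (SD, n = 4). In H730A they stood at 3.94, 4.18, 5.13 and 3.72%, a mean of 4.24% ± 0.623 (SD, n = 4). In F46A they stood at 4.05, 3.25, 3.01 and 4.54%, a mean of 3.72% ± 0.708 (SD, n = 4). All 12 mutant libraries lay below both wtJ1 libraries, and the 3 mutant genotypes overlapped one another. No test is given for these sums, since the copies were chosen on the same kind of measure.

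**Figure D1:**
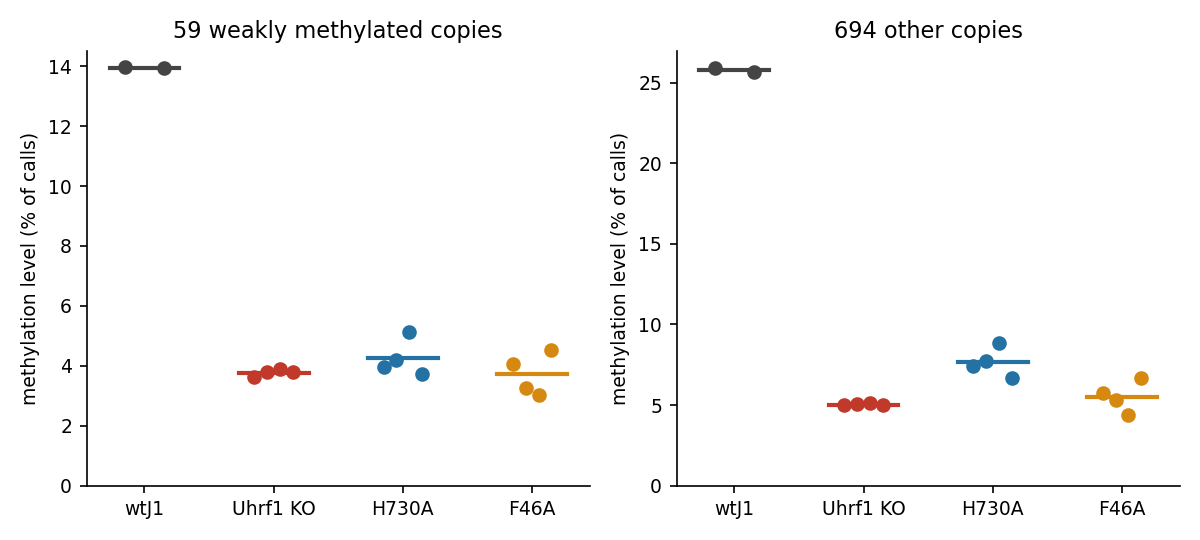
Methylation level in percent of calls, summed over the 59 weakly methylated copies (left) and over the 694 other copies (right), for each library by genotype. Points are libraries, with wtJ1 replicates 3 and 4 only, and bars are group means. The mutants overlap on the left, where H730A averages 4.24% and Uhrf1 KO 3.77%, while on the right every H730A library lies above every Uhrf1 KO library. The y axes differ between the panels.

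Copy by copy, the loss was close to general. All 59 were lower in Uhrf1 KO than in wtJ1, where 100% of all 753 copies were called, in a quasi-binomial model of the calls with limma's moderated dispersion at a Benjamini-Hochberg adjusted p under 0.05 over all copies. In H730A 58 of 59 were lower (99.9% of all copies) and in F46A 59 of 59 (100% of all copies). These shares are at or near the background. The copy not called in H730A, chr6:60312803-60312935, lies outside genes and was shallow, with 3323 calls over the 16 libraries. It stood at 15.4 and 9.74% in wtJ1 and at 4.92, 10.1, 7.86 and 1.74% in H730A, which overlap (adjusted p = 0.0596, same model). In the other 58 copies every mutant library lay below both wtJ1 libraries. The same was not counted over all 753 copies, so this is no trait of the 59.

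The loss was smaller in points than elsewhere, from a lower start. The median copy among the 59 was 11.7 points lower in Uhrf1 KO than in wtJ1, 10.8 points lower in H730A and 11.9 points lower in F46A. Over all 753 copies the medians were 20.5, 17.8 and 20.0 points. The largest losses were in a copy in Chchd6 (chr6:89533538-89533680), a gene for a protein of the inner mitochondrial membrane. It stood at 27.8 and 25.4% in wtJ1, at 4.41, 4.85, 6.09 and 4.93% in Uhrf1 KO, at 6.34, 3.35, 9.95 and 3.86% in H730A and at 4.0, 5.42, 3.99 and 6.83% in F46A. The mutants overlapped one another and lay far below wtJ1, with adjusted p of 4.91e-17, 1.08e-07 and 2.42e-13 (quasi-binomial model). This copy had been at 16.6 and 15.5% in the 2 replicates that chose it, so its wild-type level is itself uncertain.

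Further large losses were in a copy in Astn2 (chr4:65990346-65990488), which codes for an astrotactin, and in chr7:108027039-108027171, outside genes. The latter stood at 22.6 and 21.2% in wtJ1 and at 4.44% ± 1.22 (SD, n = 4) in Uhrf1 KO, with 4.62% ± 3.21 in H730A and 5.13% ± 3.22 in F46A. It had 3481 calls over the 16 libraries.

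**Figure D2:**
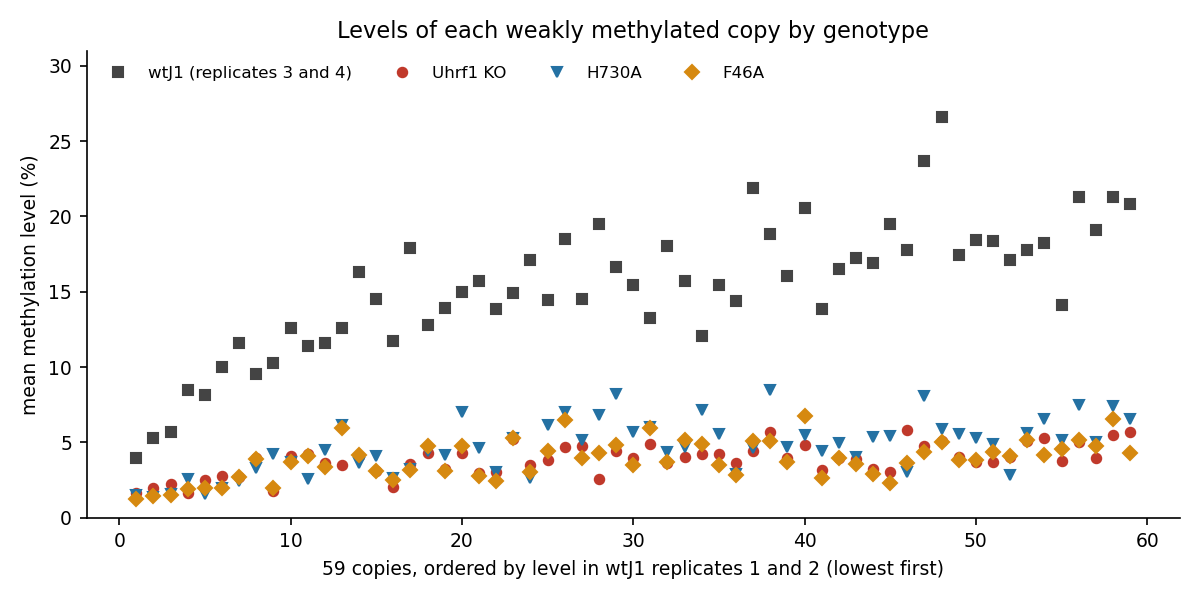
Mean methylation level in percent of each of the 59 copies (y axis) by genotype, ordered along the x axis by the level in wtJ1 replicates 1 and 2, which chose them. Squares are means of wtJ1 replicates 3 and 4, and the other symbols are means of 4 libraries. The wtJ1 means run from 3.99 to 26.6%, and the mutant means lie between 1.26 and 8.50%, below the wtJ1 mean of the same copy in each case.

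In points, what remained differed less between copies than the wild-type level did, which ran from 3.99 to 26.6%. The mutant levels were also lower, and the spread relative to the level was not compared. Per copy, Uhrf1 KO ranged from 1.62 to 5.80% with a median of 3.98%. H730A ranged from 1.39 to 8.50% with a median of 4.72%, and F46A from 1.26 to 6.77% with a median of 3.94%. The highest mean in Uhrf1 KO was at chrX:155228114-155228258 (5.80%), the highest in H730A at chr13:29070995-29071127 (8.50%) and the highest in F46A at a copy in Sncaip, which codes for synphilin (6.77%). These are shallow copies, with 4277, 2623 and 2319 calls over the 16 libraries, and their mutant libraries overlapped.

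The 5 copies lowest in wild type still lost methylation. They were chr14:44299107-44299943 in Gm32857, with 44 sites in 4 units, chr7:104120227-104120540, chr6:68362185-68362513, chrX:169159932-169160020 in Arhgap6, and chr5:104893872-104894205. All but the copy in Arhgap6 held several units. The copy in Gm32857 stood at 4.06 and 3.92% in wtJ1, at 1.61, 1.70, 1.73 and 1.49% in Uhrf1 KO, at 1.51, 1.48, 2.03 and 1.08% in H730A, and at 1.32, 0.841, 1.05 and 1.81% in F46A. Every mutant library lay below both wtJ1 libraries (adjusted p = 9.02e-09, 2.28e-05 and 4.15e-07, same model), and the mutants overlapped. The copy in Arhgap6 stood at 8.18 and 8.73% in wtJ1 and at 3.03, 0, 0.866 and 2.60% in Uhrf1 KO, and its value of 0 rests on a copy with 3607 calls over the 16 libraries.

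The shares kept differed from those of the other copies in Uhrf1 KO more than in H730A. The 59 copies kept 27% of the wtJ1 level in Uhrf1 KO, against 19.5% in the other copies, and 26.6% against 21.4% in F46A. In H730A they kept 30.4% against 29.7%. These are summed levels. By the median copy the shares were 25.3% against 19.5% in Uhrf1 KO, 23.9% against 21.3% in F46A and 30.2% against 29.9% in H730A. Put within each library, the level of the 59 copies was 53.9 and 54.2% of that of the other copies in wtJ1. It was 74.9% ± 1.37 (SD, n = 4, range 72.9 to 75.9%) in Uhrf1 KO, 55.2% ± 2.13 (range 53.1 to 58.0%) in H730A and 67.3% ± 4.09 (range 61.4 to 70.7%) in F46A. So the libraries of H730A did not overlap those of Uhrf1 KO or F46A in this quotient, those of Uhrf1 KO and F46A did not overlap either, and the range of H730A took in both wtJ1 values. This quotient uses the members' own level and is given as a description.

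The same is seen along the whole range of wild-type levels, in classes set by replicates 1 and 2. In Uhrf1 KO the share of the wtJ1 level kept was 33% in the 6 copies up to 10%, 27.5% in the 27 copies over 10 to 15% and 24.2% in the 26 copies over 15 to 17%. Outside the 59 it was 22.8% in 77 copies over 17 to 20%, 19.9% in 251 over 20 to 25%, 19.5% in 230 over 25 to 30% and 17.6% in 136 over 30%. It was lower in each class than in the class below it. In H730A the shares in the same order were 23.7, 31.6, 30.1, 30.4, 29.7, 29.5 and 32.2%, with the lowest class below and the rest close together. In F46A they were 25.3, 28.4, 24.5, 24.2, 21.6, 21.3 and 20.4%. All these are summed levels, which lean on deep copies. By the median copy the H730A shares were 27.1, 34.5, 30.9, 30.3, 29.9, 29.3 and 31.6%. The 6 lowest copies ranged from 19.5 to 38.2% in H730A, so they do not lie apart from the rest copy by copy.

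**Figure D3:**
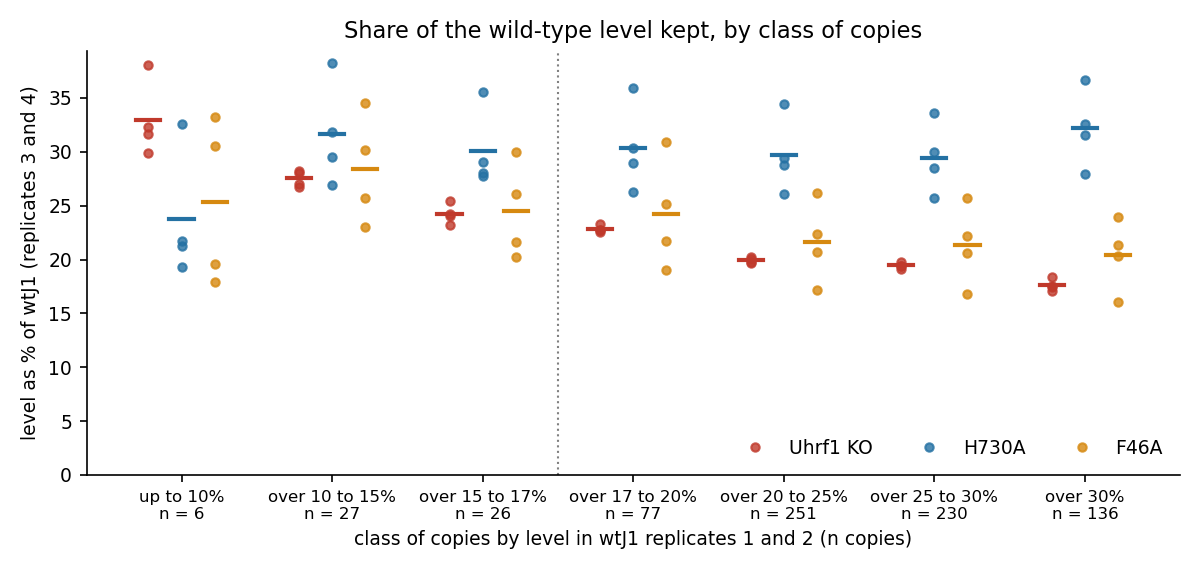
Level summed over the copies of a class, as a percent of the wtJ1 mean of replicates 3 and 4 (y axis), for 7 classes of copies set by the level in wtJ1 replicates 1 and 2 (x axis, with the number of copies). Points are mutant libraries, bars are group means, and the dotted line marks the 17% threshold. Uhrf1 KO goes from 33% in the lowest class to 17.6% in the highest, while H730A stays between 29.5 and 32.2% from the second class on.

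The difference between H730A and Uhrf1 KO was thus small in these copies. The ratio of their summed levels was 1.13 in the 59 copies and 1.52 in the other copies. The median ratio of a copy was 1.23 among the 59 and 1.52 among the others. By class the ratio of summed levels was 0.72, 1.15 and 1.24 within the 59, from the lowest class up, and 1.33, 1.49, 1.51 and 1.83 outside them. The median copy of the 59 was 0.863 points higher in H730A than in Uhrf1 KO, against 2.53 points over all copies, and 44 of the 59 had a higher mean in H730A, against 94.0% of all copies. Without H730A replicate 3, which was the highest H730A library in the 59 copies and in the others, the summed difference between H730A and Uhrf1 KO fell from 0.475 to 0.178 points.

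Of the 59 copies, 10 were called higher in H730A than in Uhrf1 KO, where 59.1% of all copies were called higher in the quasi-binomial model. Another 2 were called lower, where 0.398% of all copies, or 3 of 753, were called lower. The count of 2 was 6 of the 59 by limma on logit values (10 of 753) and 8 with Fisher's exact test (17 of 753). It was 4 without H730A replicate 3, and 1 without H730A replicate 1 or 4 or any 1 Uhrf1 KO library. The median depth per site and library was 51 to 70 calls in the 59 copies and 57 to 73 in the others, and the part of depth and of the low level in these counts was not tested. All 10 higher copies held 1 unit, and in 8 of them every H730A library lay above every Uhrf1 KO library. The same was not counted among all called copies. The means of the 10 ran from 1.77 to 4.79% in Uhrf1 KO and from 4.21 to 8.11% in H730A, a ratio of 1.27 to 2.64.

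The largest such difference was at chr5:39037854-39037996, outside genes. It stood at 1.33, 2.28, 2.34 and 4.46% in Uhrf1 KO and at 6.31, 8.09, 7.40 and 5.62% in H730A, with no overlap (4.25 points, adjusted p = 0.00114, quasi-binomial model). F46A lay between, at 3.96, 5.51, 3.96 and 3.67%, and was not called against either.

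The copy in Astn2 stood at 4.94, 5.31, 3.38 and 5.53% in Uhrf1 KO, at 7.55, 7.30, 8.22 and 9.37% in H730A and at 4.47, 4.19, 5.78 and 3.14% in F46A. H730A lay above both of the others without overlap, by 3.32 points over Uhrf1 KO (adjusted p = 0.00543) and with F46A 3.72 points below it (adjusted p = 0.0197, same model). Next came chrX:152524182-152524324, with 4.0, 2.64, 6.77 and 3.41% in Uhrf1 KO and 7.95, 6.60, 8.45 and 5.57% in H730A. There the libraries overlapped, although the difference of 2.94 points was called (adjusted p = 0.0377). At chr12:35854299-35854441, outside genes, Uhrf1 KO was at 4.37, 3.47, 4.76 and 4.69% and H730A at 7.49, 7.36, 7.10 and 6.14%, with no overlap (2.70 points, adjusted p = 0.000762, same model).

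The other called copies, named after their values were seen, showed smaller differences. A copy in Zfp804b, a zinc finger gene (chr5:7085749-7085891), stood at 2.73, 3.68, 2.74 and 3.84% in Uhrf1 KO and at 7.14, 5.24, 4.14 and 4.94% in H730A, without overlap (adjusted p = 0.0378, quasi-binomial model). At chr13:84490220-84490362 the knockout was at 4.32, 3.42, 3.94 and 3.66% and H730A at 6.15, 5.41, 7.24 and 5.88%, also without overlap (adjusted p = 0.00886), although its 2 wtJ1 values, 19.1 and 9.80%, lay far apart. At chr8:6637912-6638054 they were at 3.33, 3.94, 3.62 and 3.83% and at 5.83, 4.68, 5.56 and 5.15%, without overlap (adjusted p = 0.00429). The copy in A330008L17Rik was called with overlapping libraries, at 3.62, 3.79, 4.57 and 3.98% in Uhrf1 KO and 3.69, 5.41, 5.83 and 5.31% in H730A (adjusted p = 0.0436, same model).

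The 2 copies called lower in H730A were chr10:106391417-106391542 and chr5:104893872-104894205. The first stood at 3.91, 4.47, 3.43 and 5.03% in Uhrf1 KO and at 2.25, 3.00, 3.08 and 1.95% in H730A, with no overlap (adjusted p = 0.0385, quasi-binomial model). The second is deep, with 106741 calls, and stood at 2.30, 2.28, 2.94 and 2.40% in Uhrf1 KO and at 1.39, 1.35, 2.54 and 1.10% in H730A. Replicate 3 of H730A overlapped the knockout there, the other H730A libraries lay below it, and the difference was 0.884 points with an adjusted p of 0.011. Only 1 of the 2 was called when any library but H730A replicates 2 and 3 was left out, and 4 copies were called without H730A replicate 3.

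**Figure D4:**
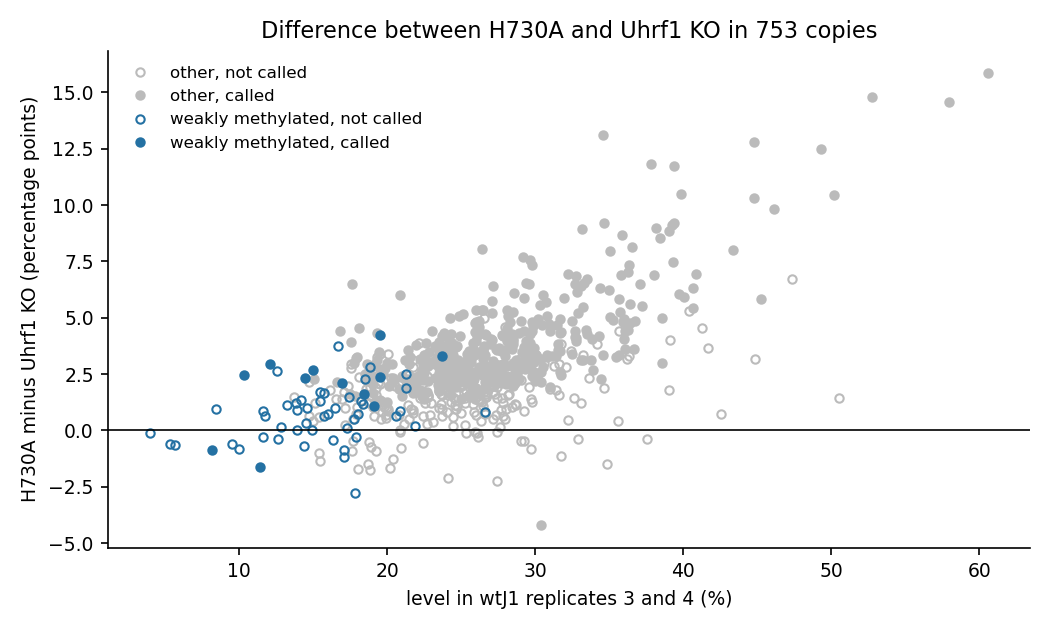
Difference of mean levels between H730A and Uhrf1 KO in percentage points (y axis) against the level in wtJ1 replicates 3 and 4 in percent (x axis) for 753 copies. Blue points are the 59 weakly methylated copies and grey points the others, and filled points were called in either direction in the quasi-binomial model. The 59 copies lie between -2.76 and 4.25 points, 44 of them above 0.

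A second fit asked whether a copy differed between 2 mutants by more or less than its library as a whole, by setting each copy's odds against those of its library. Of the 59 copies 16 were called relatively lower in H730A than in Uhrf1 KO, where 5.71% of all copies were called, and 0 relatively higher, where 4.65% of all were called (2 of the 59 had an unadjusted p under 0.05 in that direction, and the fit with the replicate number as a block also called 0). The 16 included 7 of the 9 copies with several units, against 18% of those with 1 unit. Among the other copies only 2 of the 70 with several units were called relatively lower. The 9 also stood lower in wtJ1, at 9.72% together against 16.3%, and the part of either trait was not tested. Of the 20 copies in the span of a gene 5 (25%) were called, close to the 28.2% of those outside. The mean of the 16 was lower in H730A than in Uhrf1 KO in 14 and slightly higher in 2. In those 2, the deepest copy in Lrrc69 and chr16:69209254-69209396, the level did not follow the rise of the rest of the library.

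The copy in Lrrc69 stood at 5.05, 5.07, 5.70 and 5.20% in Uhrf1 KO, at 4.64, 5.20, 6.64 and 4.71% in H730A and at 5.60, 4.91, 4.43 and 6.31% in F46A. The 3 mutants overlapped, with differences under 0.1 points, while the other copies as a whole rose from 5.03% in Uhrf1 KO to 7.67% in H730A (relative fit, adjusted p = 1.48e-06, quasi-binomial model). At chr16:69209254-69209396 Uhrf1 KO was at 4.84, 5.75, 4.58 and 5.19% and H730A at 4.71, 5.66, 6.34 and 5.74%, which overlap (relative fit, adjusted p = 0.00188). Its wtJ1 values were 16.2 and 19.3%. These 2 copies held 110793 and 78896 calls, among the most of the 59, and the part of depth in the calls was not tested.

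Summed over copies, those with several units were lower than those with 1 unit. The 9 of them together stood at 9.72% in wtJ1, 3.35% in Uhrf1 KO, with 3.09% in H730A and 3.10% in F46A, while the 50 copies with 1 unit stood at 16.3, 4.0, 4.94 and 4.07%. Copy by copy the 9 ranged from 3.99 to 21.3% in wtJ1, from 1.63 to 5.53% in Uhrf1 KO and from 1.39 to 7.42% in H730A, and the highest, in Slc22a22, lay above the joint level of the copies with 1 unit in all 4 genotypes. The ratio of H730A to Uhrf1 KO was 0.92 in the 9 together and 1.23 in the 50. Among the other 694 copies the 70 with several units did not stand out in this way, at 24.5% in wtJ1 and a ratio of 1.5. Whether the 9 are single loci or places where reads of several loci were put together was not tested.

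None of the 59 copies was called between F46A and Uhrf1 KO in the quasi-binomial model, and their summed levels overlapped. Their libraries did separate in the quotient to the other copies and at positions 8, 34, 53 and 113 of the amplicon. At position 8 the 59 copies stood at 0.569 to 0.886% in Uhrf1 KO and at 1.15 to 2.72% in F46A, and at position 34 at 0.701 to 0.970% and 1.41 to 2.69%. At position 53 F46A was the lower, at 4.32 to 6.25% against 6.42 to 6.89%. These positions were named after their values were seen. In the other copies the means of Uhrf1 KO and F46A differed in the same directions. They were 1.11 and 2.70% at position 8, 0.942 and 3.06% at position 34, 8.65 and 7.78% at position 53, and 3.14 and 7.40% at position 113. The median difference between F46A and Uhrf1 KO was -0.0369 points over the 59 copies and 0.374 points over all copies. Of the 59 copies 0 were called higher in F46A (0% of all copies) and 0 lower (0% of all copies) in the quasi-binomial model, and at an unadjusted p under 0.05 there were 0 in either direction. limma on logit values also called 0, with 1 higher and 2 lower at an unadjusted p under 0.05, and Fisher's exact test on summed calls, which holds no spread between libraries, called 3 higher and 2 lower. In the relative fit 0 of 59 were called in either direction (0% of all copies each way), with 8 of 59 lower and 0 higher at an unadjusted p under 0.05. A p that misses the threshold does not show that the levels are equal, and the F46A libraries were spread from 3.01 to 4.54% over the 59 copies.

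Against H730A, F46A was called lower in 4 of the 59 copies, where 27.4% of all copies were called lower, and higher in 0 (0% of all copies, and 0 of the 59 at an unadjusted p under 0.05 or by limma on logit values, but 3 by Fisher's exact test). The 4 were the copies in Astn2 and at chr12:35854299-35854441, chr5:71388940-71389082 and chr2:84195047-84195189, all of them among the 10 that were higher in H730A than in Uhrf1 KO. Both comparisons share the H730A libraries, so the 2 lists are not independent, and their overlap was not counted over all copies. At chr5:71388940-71389082 H730A was at 6.18, 5.58, 4.02 and 5.93% and F46A at 3.55, 2.23, 1.99 and 1.51%, with no overlap (adjusted p = 0.0212, same model). At chr2:84195047-84195189 H730A was at 4.07, 4.42, 4.66 and 3.70% and F46A at 1.29, 2.56, 1.57 and 2.47%, again with no overlap (adjusted p = 0.0309). The count of 4 hung on single libraries: it was 0 without F46A replicate 2, 1 without F46A replicate 3 or H730A replicate 2, and 2 without F46A replicate 1 or H730A replicate 3.

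In the relative fit 5 of the 59 copies were higher in F46A than in H730A, where 2.26% of all copies were called, and 0 lower (2.26% of all copies, and 1 of the 59 at an unadjusted p under 0.05). The 5 were chr5:104893872-104894205, chr10:106391417-106391542, chr8:99467057-99467211, chr16:69209254-69209396 and the copy in Lrrc69. All 5 were also among the 16 that were relatively lower in H730A than in Uhrf1 KO, and both comparisons share the H730A libraries. Without F46A replicate 4 the count was 1, and without F46A replicate 1, F46A replicate 3 or H730A replicate 2 it was 3.

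Single CpGs give the same account with less depth. Over the 800 sites the median level was 14.3% in wtJ1, 2.61% in Uhrf1 KO, with 3.92% in H730A and 2.82% in F46A. In wtJ1 100 of the 800 sites (12.5%) stood under 5%, against 1.09% of the sites of the other copies, and 26 stood over 30%, against 34.4%. In 33 of the 59 copies at least 1 site was under 5% in wtJ1. In 16 copies at least 1 site was over 30%, and the highest site stood at 42.9%. Counting error at single sites, with a median of 115 wtJ1 calls, can lift the highest site of a copy. In Uhrf1 KO 583 of 800 sites (72.9%) were under 5%, in H730A 510 (63.8%) and in F46A 569 (71.1%), against 59.4, 24.2 and 49.1% of the sites of the other copies.

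Against wtJ1, 540 of the 800 sites were called lower in Uhrf1 KO (89.4% of all 10185 sites), 492 in H730A (83.9% of all sites) and 523 in F46A (89.5% of all sites), and 0 of the 800 were called higher in any of them, also at an unadjusted p under 0.05. The shares of the 800, between 61.5 and 67.5%, were below the background. Only 2 wtJ1 libraries enter these tests, and without either one the counts fell to between 314 and 354. At single sites the median dispersion used was 1 against wtJ1 and against Uhrf1 KO, and 1.04 in F46A against H730A. The model allows none below 1, so site p-values rest largely on counting error of the calls and hold little spread between libraries. In H730A against Uhrf1 KO 66 of the 800 sites were called higher (21.4% of all sites) and 16 lower (0.785% of all sites). The 16 fell to 8 without H730A replicate 1 or 4, to 9 without H730A replicate 2 or Uhrf1 KO replicate 4 and to 10 without Uhrf1 KO replicate 3, and Fisher's exact test gave 29. Against Uhrf1 KO 0 of the 800 sites were higher in F46A (0% of all sites), with 43 at an unadjusted p under 0.05 and 16 by Fisher's exact test. Against H730A 3 of the 800 sites were lower in F46A (2.39% of all sites).

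The calls between H730A and Uhrf1 KO fell at fixed places in the amplicon. Of the 66 sites higher in H730A, position 113 held 24, position 8 held 18 and position 34 held 10, with 8 and 4 more at positions 65 and 86 and 2 off the pattern. Of the 16 sites lower in H730A, position 90 held 9, positions 49 and 110 held 3 each, and position 53 held 1. No position had calls in both directions. Called sites were not counted by position in the other copies, but these had the same directions at the main positions. Their ratio of H730A to Uhrf1 KO was 4.54, 6.83 and 6.55 at positions 113, 8 and 34, against 3.46, 6.66 and 3.70 in the 59. At position 90 it was 0.783 against 0.623, so the pattern is not particular to the 59 copies. At position 113 the 63 sites of the 59 copies stood together at 17.5% in wtJ1 (mean of replicates 3 and 4), at 2.04, 1.93, 2.01 and 2.06% in Uhrf1 KO, at 6.57, 7.28, 7.37 and 6.63% in H730A and at 3.6, 4.68, 2.27 and 5.01% in F46A. The 3 mutants did not overlap there.

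At position 90 the order of Uhrf1 KO and H730A turned round. The 67 sites at this position stood at 18% in wtJ1, at 8.38, 9.16, 9.14 and 9.0% in Uhrf1 KO, at 4.86, 4.82, 7.61 and 4.94% in H730A and at 7.88, 4.48, 6.43 and 8.52% in F46A. Every H730A library lay below every Uhrf1 KO library, and the F46A libraries ran from below the lowest H730A library to within the range of Uhrf1 KO. Positions 53, 49, 103 and 110 also kept high levels in Uhrf1 KO, at 6.56, 6.43, 6.13 and 5.47%, while positions 8 and 34 were nearly empty at 0.745 and 0.832%. At position 53, 60.6% of the wtJ1 level remained in Uhrf1 KO, and at position 8, 4.82%. The other copies had the same high and low positions at a higher level, for example 11.8% at position 90 and 1.11% at position 8 in Uhrf1 KO.

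**Figure D5:**
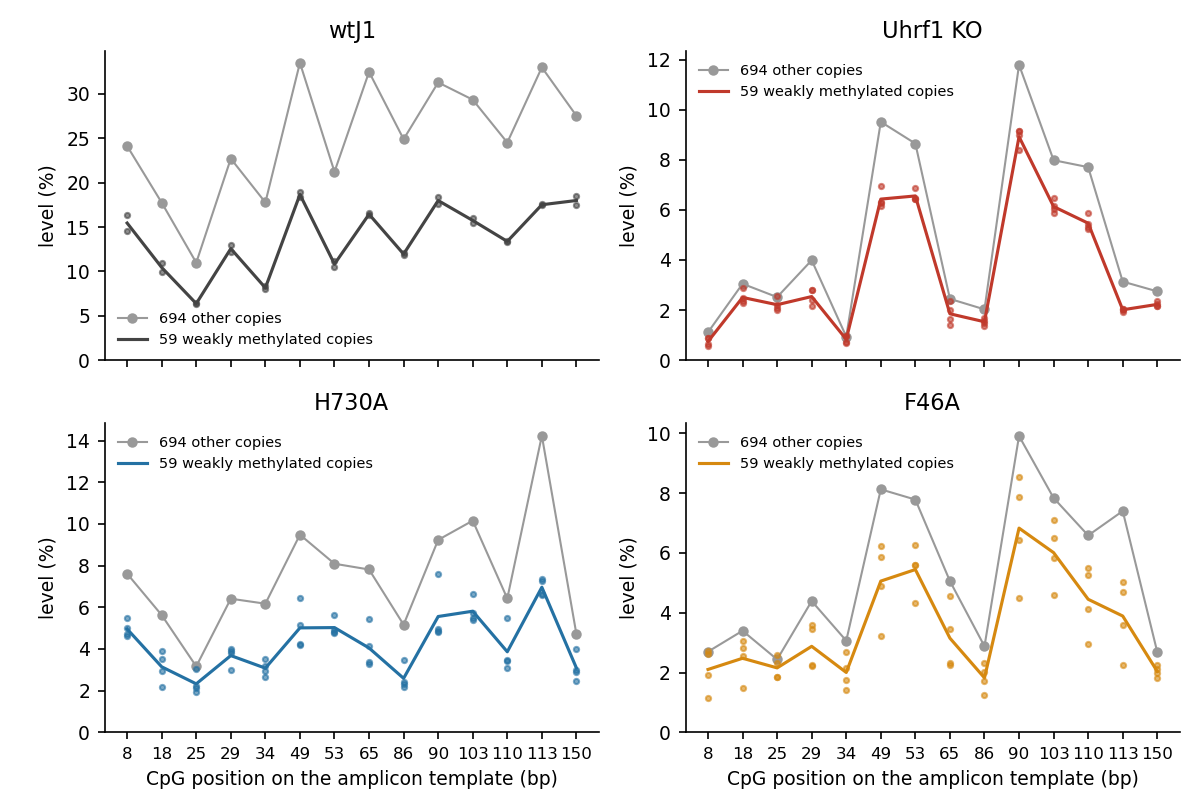
Methylation level in percent (y axis) by CpG position in bp along the amplicon pattern (x axis, 14 positions) for the 59 weakly methylated copies (coloured line, means; points are libraries) and for the 694 other copies (grey). Each panel is 1 genotype with its own y axis. In Uhrf1 KO position 90 is highest in both sets, at 8.92% in the 59 copies, and in H730A position 113 is highest, at 6.96%.

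Among single sites with 30 calls or more per library, the largest differences between H730A and Uhrf1 KO were all at position 113. In the copy in Astn2 the site at chr4:65990383 had 5.00, 1.61, 0 and 7.69% in Uhrf1 KO and 23.5, 16.1, 16.1 and 17.2% in H730A, over 51 to 65 calls a library (adjusted p = 0.00578, quasi-binomial model). The site at chr1:81420273 had 0, 0, 0 and 2.13% in Uhrf1 KO and 9.38, 26.7, 6.67 and 15.8% in H730A, over 30 to 47 calls (adjusted p = 0.00764). The site at chrX:152524287 had 1.69, 2.22, 4.84 and 0% in Uhrf1 KO and 21.6, 8.93, 16.0 and 16.1% in H730A (adjusted p = 0.00555). In none of these did the 2 genotypes overlap.

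The 3 sites lower in F46A than in H730A were deeper. At chr15:68886115, also at position 113, H730A had 10.9, 10.7, 9.66 and 12.5% and F46A 2.01, 6.06, 1.82 and 0% (adjusted p = 0.0395, quasi-binomial model). At chr16:69209254, at position 8, H730A had 6.07, 5.11, 6.44 and 4.17% and F46A 1.42, 3.37, 1.36 and 2.40% (adjusted p = 0.0376), while Uhrf1 KO had 0, 0.659, 0.574 and 0.862%. At chr12:38074795 in Dgkb, also at position 8, H730A had 5.26, 4.65, 5.58 and 2.84% and F46A 0.457, 0.500, 1.01 and 1.65% (adjusted p = 0.0376). None of the 3 pairs of groups overlapped, and at most 2 of the sites were called when any one library was left out.

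Copies in genes did not stand apart. The 20 of them averaged 14.6% in wtJ1, 3.99% in Uhrf1 KO, with 4.41% in H730A and 3.96% in F46A, against 13.6, 3.63, 4.14 and 3.57% for the 39 outside genes. The copy in Dgkb stood at 13.7 and 15.4% in wtJ1, at 3.13, 2.59, 3.45 and 3.21% in Uhrf1 KO, at 4.10, 4.02, 6.07 and 2.18% in H730A and at 3.73, 2.87, 2.19 and 3.74% in F46A, so that the mutants overlapped. Other low copies lay in Gm4788 (chr1:139716696-139717029) and A830018L16Rik (chr1:11626797-11626946). The former averaged 9.98% in wtJ1, 2.76% ± 0.446 (SD, n = 4) in Uhrf1 KO, with 1.95% ± 0.349 in H730A and 1.98% ± 0.922 in F46A. The latter averaged 14.4% in wtJ1, 3.64% ± 0.334 (SD, n = 4) in Uhrf1 KO, with 2.94% ± 1.97 in H730A and 2.85% ± 1.22 in F46A. Expression of these genes was not measured.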

How the data were processed

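A LINE1 bisulfite amplicon was measured in 16 libraries of 4 genotypes, grouped by their titles. The deposited files give, per CpG, the count of methylated calls, the count of all calls and their ratio as a fraction, per the file headers. The submitters' processing notes name mm10, methylKit, BSMAP 2.90 and Trim Galore 0.3.1 but give them no role. Only CpGs are listed, which leaves the completeness of the conversion unknown, and incomplete conversion would add to every level.

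Counts were summed per copy and fitted with a quasi-binomial model (R 4.3.3, limma 3.58.1: moderated dispersion, not below 1, F test, Benjamini-Hochberg at 0.05 over all 753 copies or 10185 sites), against wtJ1 with replicates 3 and 4 only. The relative fit added the logit of the library's level as an offset. The model was tested on simulated data with independent noise in each copy or site and library. No shift common to a whole library was simulated, so that test cannot speak to such shifts. The copies and lists were chosen with earlier results of these data known. Copies named in the text were the 6 deepest, the 5 lowest, 3 on either side of the threshold, the largest called differences, extremes and copies in genes, and neighbouring or further called copies were named after their values were seen. Genes came from the RefSeq table of GRCm38.p6 by span. Alternatives were other coverage, gap and membership limits, swapped wtJ1 replicates, limma on logit values, Fisher's exact test, single strands, a replicate block and each library left out. Fisher's test holds no spread between libraries. No sequence was read, since no genome was used here.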

Additional observations from a re-analysis of the deposited data

Results flagged for a closer look

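Of 84 groups of 4 libraries, those of 27 named copies and of the sum over the 59 copies in each mutant, 3 had 1 library far from the other 3 of its genotype, and chance alone gives about 1 in 20. At chr7:108027039-108027171 Uhrf1 KO replicate 4 was at 6.25%, against 3.67 to 4.0% in the other Uhrf1 KO libraries. At chr5:39037854-39037996 F46A replicate 2 was at 5.51%, against 3.67 to 3.96% in the others. At chr8:17498700-17498832 in Csmd1 F46A replicate 3 was at 3.04%, against 4.67 to 4.97% in the others. None of these copies was called between F46A and Uhrf1 KO.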

How the results depend on the processing

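Of 399 alternative values 311 kept their direction and size, 83 moved and 5 changed sign. The number of low copies was 42 with at least 30 calls, 64 with gaps of at most 100 bp, 33 at a threshold of 15%, 136 at 20%, 51 when wtJ1 replicates 3 and 4 chose them and 56 on pattern sites only, and 38 were chosen by both pairs of wtJ1 libraries. The share of copies higher in H730A than in Uhrf1 KO was 28.7% at the 20% threshold and 42.4% by Fisher's exact test, and of sites 14.0% with at least 30 calls and 13.4% by Fisher's test. Copies higher in F46A than in Uhrf1 KO came to 5.08% by Fisher's test, and sites to 1.73% with at least 30 calls and 2.00% by Fisher's test. Copies lower in F46A than in H730A came to 3.92% when replicates 3 and 4 chose them and 37.3% by Fisher's test, and sites to 1.56% with at least 30 calls and 3.88% by Fisher's test. The cause of these shifts was not tested. The summed difference between Uhrf1 KO and wtJ1 was -10.0 points with at least 30 calls, -8.30 at 15%, -13.0 at 20%, -9.03 with swapped replicates, -11.5 unweighted, -10.3 on the plus and -9.98 on the minus strand, and -9.54 with all 4 wtJ1 libraries. For H730A it was -8.09, -11.9, -8.74, -10.6 and -9.06 at 15%, at 20%, swapped, unweighted and with all 4 wtJ1 libraries, and for F46A in the same order -8.39, -12.9, -9.10, -11.5 and -9.59. H730A minus Uhrf1 KO was 1.06 at 20%. F46A minus Uhrf1 KO, -0.0541 as reported, turned to 0.128 at 20%, 0.0312 unweighted, 0.0783 on the plus strand, 0.100 without F46A replicate 2 and 0.180 without F46A replicate 3, so its sign is not settled.

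Leaving out 1 library at a time gave the following ranges. The share of copies called lower than wtJ1 was 100% for Uhrf1 KO, 88.1 to 100% for H730A and 94.9 to 100% for F46A, and of sites 40.1 to 63.4%, 39.3 to 59.6% and 41.3 to 65.6%. Copies higher in H730A than in Uhrf1 KO made up 11.9 to 22% and sites 5.50 to 7.25%, and in the relative fit 0 to 1.69% were higher and 20.3 to 28.8% lower. For F46A against Uhrf1 KO 0% of copies or sites were higher, also in the relative fit. For F46A against H730A 0 to 8.47% of copies and 0 to 0.25% of sites were lower, and 0% in the relative fit. Summed differences from wtJ1 were -10.2 to -10.1 points for Uhrf1 KO, -10.0 to -9.53 for H730A and -10.5 to -10.0 for F46A. Between mutants they were 0.178 to 0.651 for H730A minus Uhrf1 KO, -0.330 to 0.180 for F46A minus Uhrf1 KO and -0.805 to -0.233 for F46A minus H730A.

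For libraries with the same replicate number, the deviations of the copies from the genotype mean correlated between -0.0916 and 0.115, with 1 of 24 pairs over 0.1. A library correlated best with its own number in 11 of 48 cases. A shift common to all copies of a library does not enter this correlation, so a shared batch was not tested by it. With the replicate number as a block, the copies lower than wtJ1 were 100, 88.1 and 91.5% for Uhrf1 KO, H730A and F46A, 20.3% were higher in H730A than in Uhrf1 KO, and 0% were lower in F46A than in H730A. Under the block 0% of sites were called in every comparison, with 129, 216 and 122 of 800 at an unadjusted p under 0.05 against wtJ1, 85 higher in H730A than in Uhrf1 KO and 31 lower in F46A than in H730A.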
